A study of Mus musculus with 24 samples.

Results

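Of 16617 genes measured, 40 were expressed in naive wild-type mouse embryonic stem cells and stood low in each of 3 naive lines with altered MLL3 and MLL4. They were chosen from the deposited group means of log2 CPM (counts relative to the library's total, on a log2 scale with a prior count of 2). A gene needed a naive wild-type mean of at least 1, a difference from naive wild type of −1.5 or less in each mutant line, and a knockout minus floxed difference above −1. These thresholds were met by 41 genes, and Ly6a was then left out by name, as Apol6, Oas1a, Oas1f and the Zscan4, Tcstv and Usp17l genes would have been. A further 27 genes met the other thresholds but lay lower in the knockout than in the floxed line by 1 or more. The naive differences therefore describe the choice of these genes and were given no test. Tests were made in formative cells, whose values took no part in the choice.

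The data were poly(A) 3′ tag RNA-seq counts of 4 mouse embryonic stem cell lines in 2 culture states, with 3 independently cultured samples per group in the labels. Naive cells were kept in LIF with 2i (the inhibitors that hold the ground state), and formative cells were taken 63 h after both had been withdrawn. The 4 genotypes were wild type, MLL3KO_MLL4fl (the floxed line, which lacks MLL3 by its name and carries floxed MLL4), MLL3KO_MLL4KO (the knockout line, without either protein by its name) and MLL3CD_MLL4CD (the catalytic-dead line, where CD was read as catalytic-dead and both proteins carry the change). Wild-type and catalytic-dead cells are R1 cells per the labels, while they name no parent line for the floxed and knockout cells. Each genotype was represented by 1 line, so genotype and line cannot be told apart, and no line with intact MLL3 in the background of the floxed line is among the samples analysed here.

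Kmt2c and Kmt2d encode MLL3 and MLL4, large methyltransferases that place monomethylation on lysine 4 of histone H3 at enhancers. They sit in complexes with UTX and other subunits, and have roles in enhancer activity that do not all depend on their catalytic domain. Naive embryonic stem cells correspond to the epiblast before implantation, and on withdrawal of LIF and 2i they pass to the formative state, in which naive genes are shut down and the enhancers of early post-implantation genes come into use.

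The table held group means only. Library values were recovered from the means for 23 of the 24 labelled samples, with 4808564 to 15425959 counts each, and the deepest of a group is called library a, the next b and the last c. The naive wild-type column held 2 libraries, of 14237630 and 8839216 counts, so every naive level of wild type rests on 2 values. The summed level of embryonic stem cell markers was 1912 to 2357 CPM in the naive and 508.1 to 720.3 CPM in the formative groups. That of formative markers was 84.06 to 163.1 and 1419 to 2299 CPM. Single markers moved in both directions. Naive Esrrb stood at 387.9 CPM in wild type and 307.5, 209.5 and 163.1 CPM in the floxed, the knockout and the catalytic-dead line. In this order Klf4 stood at 185.3, 484.8, 666.9 and 271.6 CPM. Tfcp2l1, Zfp42 and Pou5f1 were also lower in every naive mutant line, Nanog was higher, and Sox2 was higher in the floxed line only. Naive levels of the formative marker Otx2 were 12.2, 8.22, 32.4 and 65.9 CPM, and those of Dnmt3b 130.6, 113.6, 36.5 and 86.9 CPM. Markers of other cell types moved with some mutant groups. The sum of 5 of 8 fibroblast feeder markers was 8.36 CPM in naive wild type, 11.1 CPM in the naive floxed line, 98.8 CPM in the knockout line and 44.5 CPM in the catalytic-dead line, of which Acta2 made up 5.67, 8.30, 95.9 and 40.4 CPM. In the same order of formative lines the sum was 24.8, 37.3, 373.9 and 91.1 CPM, of which Acta2 made up 15.0, 18.3, 359.8 and 64.8 CPM. Thy1 was lower in every naive mutant line, and stood at 3.45, 6.03, 0.489 and 1.84 CPM in the formative lines. Dcn was higher in every formative mutant line, and Col1a1 and Col1a2 moved in both directions there. The sum of 4 of 7 primitive endoderm markers was 5.63, 4.48, 31.7 and 54.3 CPM in the naive lines, of which Dab2 made up 3.45, 2.53, 24.9 and 49.6 CPM, and 16.9, 10.4, 20.9 and 26.8 CPM in the formative lines. The sum of 6 of 7 trophoblast markers was 139.7, 108.8, 211.1 and 148.1 CPM in the naive lines. Of this Tfap2c made up 121.4, 75.2, 143.8 and 88.2 CPM. Krt7, Krt8 and Krt18 were higher in every naive mutant line than in naive wild type. Cdx2 was lower in the floxed line and Eomes in the knockout line, and each was higher in the other mutant lines. The part of all these markers in the results below was not tested. Kmt2c stood at 48.8 CPM in naive wild type against 23.4, 22 and 67.4 CPM in the naive floxed, the knockout and the catalytic-dead line, and Kmt2d at 29.0 against 28.8, 17.6 and 27.6 CPM. A 3′ tag can lie outside the deleted part of a gene, so these levels check the labels in part at most.

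By annotation 31 of the 40 genes (77.5%) were protein-coding, against 81.45% of all genes in the table. The others were 3 lincRNAs, 2 antisense transcripts, 2 processed pseudogenes and 2 snoRNAs. None belonged to any of the 20 lists of pluripotency, germ layer, germline, imprinted, antiviral and related genes set for this study. For the antiviral and Ly6 lists this may be fixed in part by leaving out Ly6a, which met the thresholds. The Zscan4, Tcstv and Usp17l genes left out by name did not meet them. The group joins enzymes of amino acid and CO2 metabolism, receptors, secreted peptides and their processing enzyme, myelin and muscle proteins, and unnamed gene models of repeats and multicopy families.

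The promoters of 3 genes that were lower in formative mutant cells and have an entry in the RefSeq promoter table are shown first, so that these genes can be placed in the genome beside their values. Each is the 250 bases before the annotated start, on the strand of the gene, in build GRCm38.p6 and 5′ to 3′. No base is in capitals, because none of the ESRRB, STAT, AP-1 and TATA patterns searched occurs in these 3 windows.
Cysltr2 (chr14:73049115-73049364, minus strand): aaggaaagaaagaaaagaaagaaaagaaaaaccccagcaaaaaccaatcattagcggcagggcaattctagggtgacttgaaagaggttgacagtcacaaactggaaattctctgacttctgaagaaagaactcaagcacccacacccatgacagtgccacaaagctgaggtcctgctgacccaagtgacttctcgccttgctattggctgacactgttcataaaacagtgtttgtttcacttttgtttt
1700013H16Rik (chrX:53757832-53758081, minus strand): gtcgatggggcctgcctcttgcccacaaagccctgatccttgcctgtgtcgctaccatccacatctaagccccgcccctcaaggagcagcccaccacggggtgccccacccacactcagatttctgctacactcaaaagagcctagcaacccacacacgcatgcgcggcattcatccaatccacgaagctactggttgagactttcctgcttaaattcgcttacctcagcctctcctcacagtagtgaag
Aass (chr6:23132987-23133236, minus strand): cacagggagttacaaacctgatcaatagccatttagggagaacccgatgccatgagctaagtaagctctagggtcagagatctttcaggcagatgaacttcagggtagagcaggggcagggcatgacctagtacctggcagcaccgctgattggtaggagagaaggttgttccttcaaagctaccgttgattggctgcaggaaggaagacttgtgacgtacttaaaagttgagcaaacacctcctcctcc
Promoter entries matched 25 of the 40 genes. On both strands, the ESRRB half-site AAGGTCA was found in 1 of these 25 genes, Bhmt, and in 4.08% of 32851 promoters of the same length. The STAT pattern TTCNNNGAA was found in 1 of the 25 genes (Dcdc2a) against 7.02% of all promoters, the AP-1 pattern TGANTCA in 2 (Mylk and Pramel6) against 6.75%, and the TATA pattern TATAAA in 1 (Adcyap1) against 12.37%. The short KLF core CACCC, a pattern found in many promoters, occurred in 17 of the 25 genes, Cysltr2 and 1700013H16Rik among them, and in 52.01% of all promoters. The shares over all promoters are counted by promoter, and some of the 25 genes have more than 1. Counted in the same way, the matches were in 1, 1, 2, 1 and 17 of 28 promoters, in the order given. None of these patterns contains another, and a match is a description of letters only. Dcdc2a and Pramel6 are named for these matches after their values had been seen. Median GC content was 50.0% over 28 promoters of these genes and 52.4% over all promoters.

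In naive cells the median difference from wild type over the 40 genes was −2.11 in the floxed line, −2.496 in the knockout line and −2.05 in the catalytic-dead line, on the log2 CPM scale. Over all genes the medians were 0.02, 0.03 and 0.12. The lowest of the 3 mutant means was that of the knockout line for 19 genes, of the catalytic-dead line for 16 and of the floxed line for 5. All differences were set by the choice of genes to lie at −1.5 or below, and the deepest were −4.54 (Cysltr2, floxed), −4.69 (Cysltr2, knockout) and −4.14 (Aass, catalytic-dead). Both naive wild-type libraries lay above all 9 mutant libraries for 36 of the 40 genes, against 4.76% of all genes with recovered naive libraries, a contrast the choice itself fixes. For single lines the count was 37 in the floxed line (14.9% of all genes), 40 in the knockout line (25.6%) and 38 in the catalytic-dead line (14.8%). The 4 exceptions were Ldhd, Ntrk2, Gm10717 and Gm10800, of which Ldhd, the D-lactate dehydrogenase, was named after its values were seen. In bulk RNA, fewer cells that express a gene and less of its RNA per cell cannot be told apart.

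**Figure D1:**
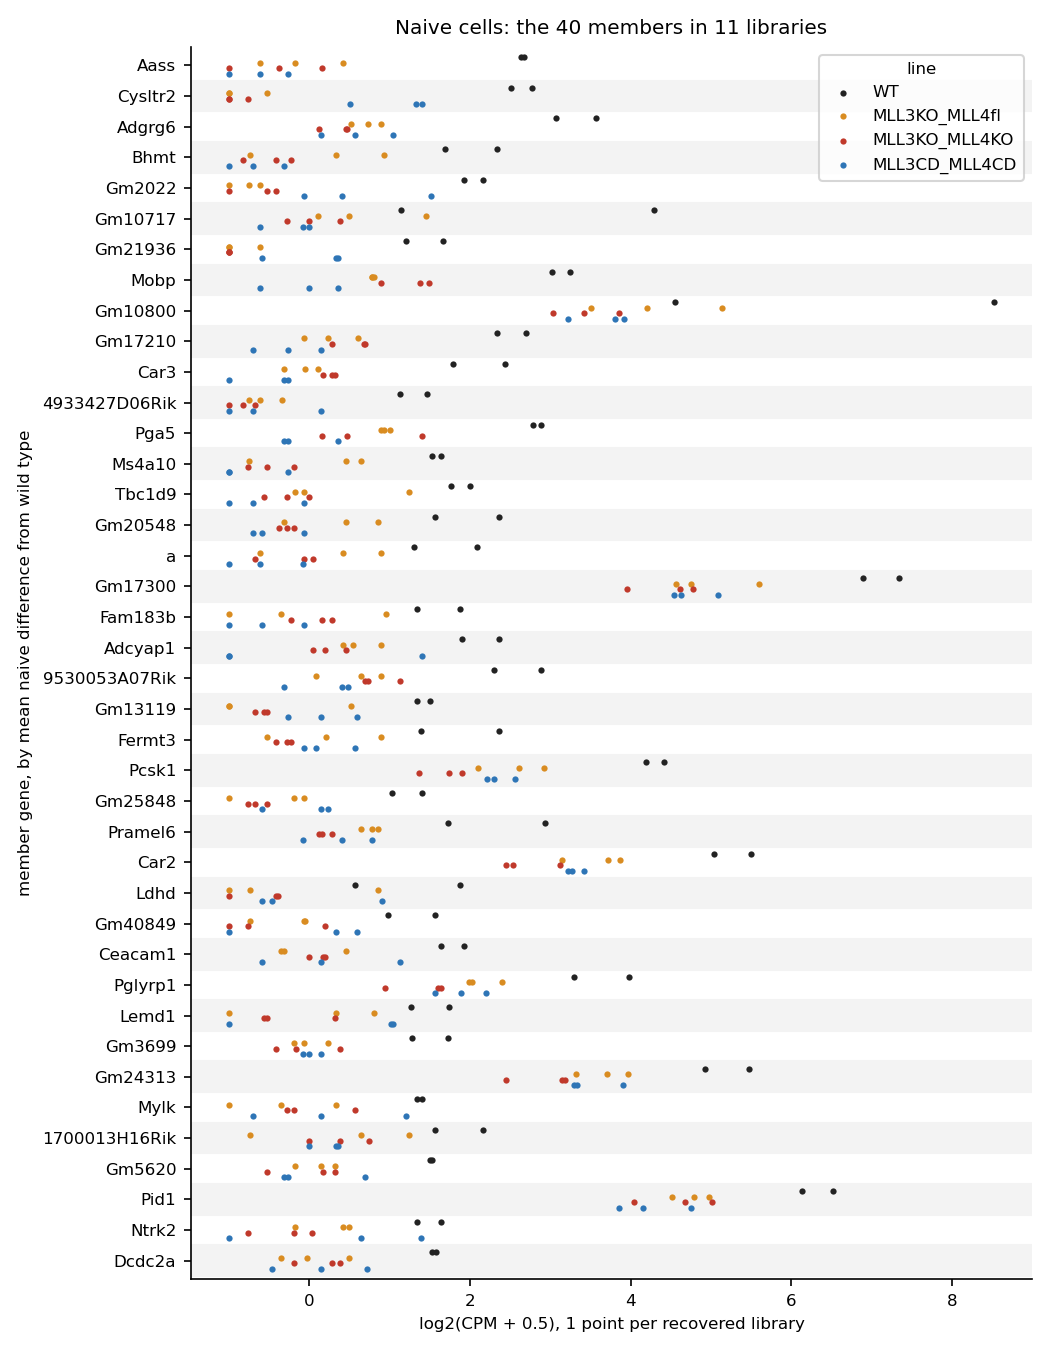
Naive levels of the 40 genes in 11 recovered libraries, 1 row per gene in order of the mean naive difference and 1 colour per line, on an axis of log2(CPM + 0.5). In 36 rows both wild-type points lie to the right of all 9 mutant points, and the order of the 3 mutant lines differs from gene to gene.

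The threshold cuts through a continuous range. Just inside it were Ntrk2 (−1.51 in its least lowered line), Mylk (−1.52) and Gm24313 (−1.56), and just outside were Gm26493 (−1.498), Fam181b (−1.47) and D830044D21Rik (−1.47). Of these outer genes D830044D21Rik was low in the floxed and knockout lines, by −3.67 and −4.31, and missed the threshold in the catalytic-dead line only.

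Among the enzymes, Aass, which catalyses the first steps of lysine breakdown in mitochondria, had the lowest mean difference over the 3 lines. Its naive wild-type libraries stood at 5.69 and 5.88 CPM. The floxed libraries stood at 0.838, 0.385 and 0.151 CPM, the knockout libraries at 0, 0.266 and 0.619 CPM, and the catalytic-dead libraries at 0, 0.152 and 0.328 CPM. No mutant library reached 1 CPM, and the differences were −3.31, −3.80 and −4.14. Bhmt, which makes methionine from homocysteine and betaine, stood at 4.57 and 2.71 CPM in naive wild type. Its mutant libraries ranged from 0.0961 to 1.40 CPM in the floxed line, 0.0648 to 0.355 CPM in the knockout line and 0 to 0.304 CPM in the catalytic-dead line. Pga5, a pepsinogen, stood at 6.39 and 6.90 CPM in wild type and at 1.35 to 1.51, 0.619 to 2.14 and 0.304 to 0.782 CPM in the 3 mutant lines. For these genes too all mutant libraries lay below both wild-type libraries. Ms4a10, a gene of the membrane-spanning 4A family that lies 284.2 kb from Pga5 on chromosome 19 with 5 genes between them, stood at 2.39 and 2.60 CPM in wild type and at 0.0932 to 1.06, 0.0887 to 0.371 and 0 to 0.328 CPM in the mutant lines.

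The carbonic anhydrases Car2 and Car3, cytosolic enzymes that interconvert CO2 and bicarbonate (Car3 with low activity), lie side by side on chromosome 3 of GRCm38, 13.8 kb apart (Car3 at 14863512 to 14872523, Car2 at 14886273 to 14900770, both on the plus strand). Car2 stood at 32.5 and 44.6 CPM in naive wild type. The levels were 12.7, 8.36 and 14.1 CPM in the floxed libraries, 5.32, 4.97 and 8.17 CPM in the knockout libraries and 9.17, 8.82 and 10.2 CPM in the catalytic-dead libraries. The mutant libraries did not overlap wild type, and the knockout libraries were all below those of the other mutant lines. Car3 stood at 4.92 and 2.94 CPM in wild type and at 0.466, 0.577 and 0.302 CPM in the floxed, 0.713, 0.621 and 0.743 CPM in the knockout, and 0, 0.304 and 0.328 CPM in the catalytic-dead libraries. Here the order of the mutant lines was another one, with the knockout libraries the highest of the 3. None of the other 10 carbonic anhydrase genes in the table, listed after the group was known, was 2-fold lower in all 3 naive lines. Some of them were too low in naive wild type to fall this far. Car10 had 0 and 0 counts in libraries a and b, and Car14 had 1 and 0.

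Among the receptors, Cysltr2, a G-protein-coupled receptor for cysteinyl leukotrienes, stood at 5.20 and 6.33 CPM in naive wild type. The floxed libraries gave 0, 0.192 and 0 CPM, the knockout libraries 0, 0.0887 and 0 CPM, and the catalytic-dead libraries 2.01, 0.913 and 2.13 CPM. The gene was thus at or near 0 in the floxed and knockout lines, with 2 and 1 counts summed over 3 libraries, and at an intermediate level in the catalytic-dead line. Adgrg6, an adhesion receptor known for its part in myelination by Schwann cells, stood at 7.87 and 11.3 CPM in wild type and at 0.932 to 1.36, 0.583 to 0.887 and 0.609 to 1.56 CPM in the 3 mutant lines. Ntrk2, the receptor for the neurotrophin BDNF, stood at 2.04 and 2.60 CPM in wild type, with floxed libraries at 0.838, 0.385 and 0.906 CPM and knockout libraries at 0.519, 0.0887 and 0.371 CPM. Its catalytic-dead libraries stood at 2.12, 1.06 and 0 CPM, so 1 of them overlapped wild type.

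Secreted products formed another set. Pcsk1, the convertase that cuts prohormones in secretory granules, stood at 17.7 and 20.8 CPM in naive wild type and at 7.08, 5.58 and 3.78 CPM in the floxed, 2.07, 2.84 and 3.22 CPM in the knockout, and 4.14, 4.41 and 5.41 CPM in the catalytic-dead libraries. Adcyap1, which encodes the neuropeptide PACAP, stood at 3.23 and 4.64 CPM in wild type and at 0.838 to 1.36, 0.532 to 0.866 and 0 to 2.13 CPM in the mutant lines. Pglyrp1, a secreted protein that binds bacterial peptidoglycan, stood at 15.2 and 9.28 CPM in wild type and at 3.48 to 4.75, 1.42 to 2.60 and 2.46 to 4.10 CPM. The agouti gene (a), known for its signal protein in pigment switching, stood at 1.97 and 3.73 CPM and at 0.151 to 1.35, 0.124 to 0.532 and 0 to 0.447 CPM, and its gene model overlaps Raly and Eif2s2. None of these 4 genes had a mutant library inside the range of wild type.

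Mobp, a structural protein of myelin, stood at 7.59 and 8.94 CPM in naive wild type and at 1.21 to 1.25 CPM in the floxed, 1.36 to 2.31 CPM in the knockout and 0.152 to 0.782 CPM in the catalytic-dead libraries. Its catalytic-dead libraries lay below all others. Mylk, the myosin light chain kinase, stood at 2.04 and 2.15 CPM in wild type and at 0 to 0.755, 0.324 to 0.976 and 0.112 to 1.80 CPM in the mutant lines. Pid1, an adaptor with a phosphotyrosine-binding domain, stood at 91.5 and 69.3 CPM and at 22.3 to 30.9, 16 to 31.9 and 14 to 26.5 CPM. Tbc1d9, a protein of the Rab GTPase-activating family, stood at 2.88 and 3.51 CPM and at 0.385 to 1.86, 0.178 to 0.495 and 0 to 0.457 CPM. Fam183b stood at 3.16 and 2.04 CPM and at 0 to 1.44, 0.355 to 0.713 and 0 to 0.457 CPM. The gaps to wild type were wide for Mobp and Pid1 and narrow for Mylk, whose highest mutant library was close to the lower wild-type library.

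Several gene models of multicopy families belong to the group, and their 50-base tags can match more than 1 gene. Gm2022 and Gm21936 are eIF1A-like genes 99.4 kb apart on chromosome 12, and 97.15% and 66.06% of the 50-base words in the ends of their transcripts also occur in other genes. Gm2022 stood at 3.30 and 3.96 CPM in naive wild type, at 0.0932, 0 and 0.151 CPM in the floxed, 0.195, 0 and 0.247 CPM in the knockout and 2.35, 0.457 and 0.820 CPM in the catalytic-dead libraries. Gm21936 stood at 2.67 and 1.81 CPM in wild type, at 0 to 0.151 CPM in the floxed libraries, at 0 CPM in every knockout library and at 0.164 to 0.782 CPM in the catalytic-dead libraries. The floxed and knockout lines were thus at or near 0 for both. Gm13119, a gene of the Pramel and Pramef family with 23.73% shared words, stood at 2.32 and 2.04 CPM in wild type, at 0.932, 0 and 0 CPM in the floxed, 0.195, 0.177 and 0.124 CPM in the knockout and 1.01, 0.609 and 0.328 CPM in the catalytic-dead libraries. Gm2022 and Gm13119 had their lowest means in the floxed and knockout lines. The summed level of 5 markers of 2-cell-like cells, a rare state in these cultures, moved in the same order at 12.5 CPM in naive wild type, 1.79, 1.77 and 8.87 CPM in the naive floxed, the knockout and the catalytic-dead line. In formative cells the sum was 27.9 CPM in wild type and 1.35, 3.52 and 12.7 CPM in the mutant lines, with 2 of the 5 markers at 0 in every formative floxed library. Their part in the levels of Gm2022, Gm21936 and Gm13119 was not tested.

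Gm10800 and Gm10717 are models that share sequence with satellite repeats, with 30.16% and 49.36% shared words. Gm10800 stood at 366.5 CPM (5218 counts) in naive wild-type library a and at 22.9 CPM (202 counts) in library b, a 16-fold gap between samples of 1 group. Gm10717 stood at 19 and 1.70 CPM, an 11.2-fold gap. The mutant libraries ranged from 7.67 to 34.7 CPM for Gm10800 and from 0.152 to 2.24 CPM for Gm10717, so library b lay inside the mutant range for both. Without library a neither gene met the thresholds. A further pair of satellite-type models that did not belong to the group, Gm10801 (148.1 and 4.75 CPM) and Gm21738 (11.7 and 1.81 CPM), had the same order of libraries.

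**Figure D2:**
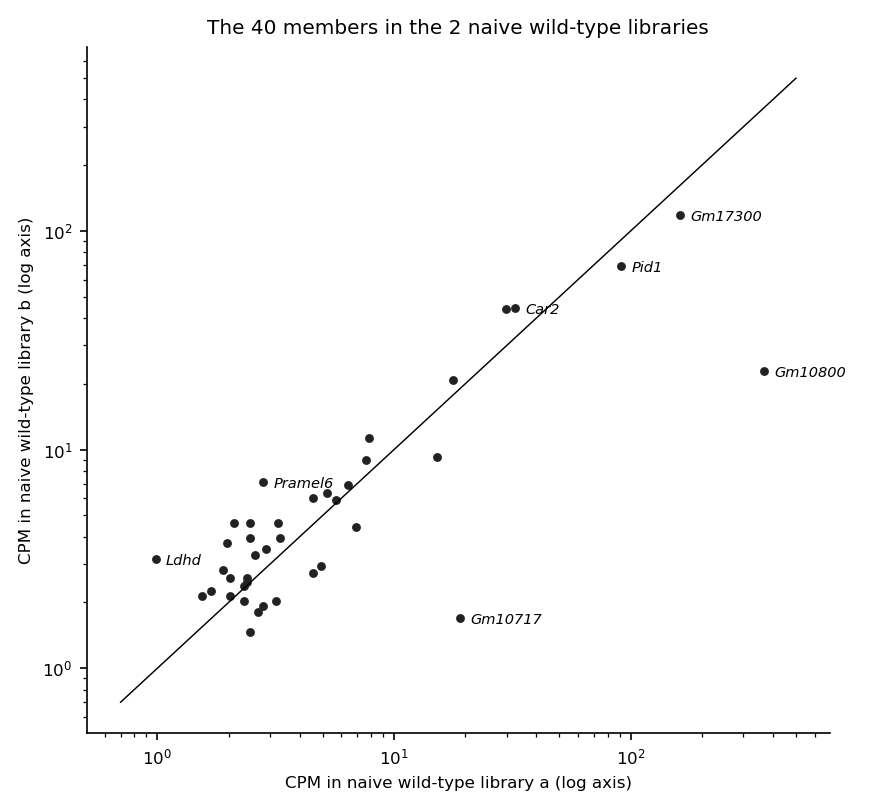
CPM of the 40 genes in the 2 naive wild-type libraries, library a against library b, on log axes with a line of equal levels. Gm10800 and Gm10717 lie far to the side of library a, and the other genes stay nearer the line.

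Among non-coding models, Gm17210, antisense to Parg, stood at 4.57 and 6 CPM in naive wild type and at 0.453 to 1.03, 0.710 to 1.11 and 0.112 to 0.609 CPM in the mutant lines. Gm17300, a lincRNA opposite Rcc1, stood at 161.5 and 118.3 CPM and at 23.2 to 48.1, 15.0 to 26.8 and 22.7 to 33.5 CPM. The snoRNA Gm25848 lies within Fbxo45 on the same strand and stood at 1.55 and 2.15 CPM and at 0 to 0.453, 0.0887 to 0.195 and 0.164 to 0.671 CPM. Reads of these models cannot be told apart from reads of the overlapping gene where the counting did not use strand or where the strand is shared, with a strand setting not given in the sources used here. Gm20548, antisense to Wdfy3, stood at 2.46 and 4.64 CPM in wild type and at 0.302 to 1.30, 0.266 to 0.371 and 0.112 to 0.457 CPM in the mutant lines. The lincRNA 4933427D06Rik stood at 1.69 and 2.26 CPM in wild type and at 0.0932 to 0.288, 0 to 0.124 and 0 to 0.609 CPM in the mutant lines.

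From naive to formative wild type 25 of the 40 genes were at least 2-fold lower in the deposited means, as were 9.65% of all genes and 10.6% of the 11793 genes with a naive wild-type mean of at least 1. A further 13 were within 2-fold and 2 were at least 2-fold higher, and the median difference was −1.41 against 0.14 over all genes. These are differences of means with no test and support nothing, since the genes were chosen for high naive wild-type values. The widest drops in level were those of Pga5 (−4.74), Pglyrp1 (−4.53), Gm17210 (−3.92), Bhmt (−3.60) and Mobp (−3.54). Pglyrp1 stood at 0.504, 0.785 and 0 CPM in the formative wild-type libraries, and Mobp at 0.432, 0.785 and 0.399 CPM. Among the genes within 2-fold were Gm13119 (0.03), Tbc1d9 (0.29), Pid1 (−0.38), Cysltr2 (−0.50) and Pcsk1 (−0.82). For Cysltr2 and Pcsk1 all 3 formative wild-type libraries still lay below both naive ones. Car2 and Car3 were the 2 genes that stood higher in formative wild type, by 2.72 and 1.89.

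The mutant lines did not show this pattern in their means. From naive to formative cells 9, 3 and 4 of the 40 genes were at least 2-fold lower in the floxed, the knockout and the catalytic-dead line, and 9, 11 and 11 were at least 2-fold higher. The median difference was −0.02, 0.46 and 0.65 in these lines. All naive mutant values had been chosen to be low, which fixes part of this, and the deposited knockout mean of formative cells includes a library it shares with the catalytic-dead mean. Over the 36 genes with library values in every formative group, the median level was 2.81 and 3.39 CPM in the naive wild-type libraries, 0.731 to 1.23 CPM in formative wild type, and 0.649 to 0.677, 0.624 to 1.2 and 0.851 to 1 CPM in the formative floxed, knockout and catalytic-dead libraries. At the level of this median the formative groups overlapped, apart from the floxed libraries, which lay below all 3 wild-type libraries.

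**Figure D3:**
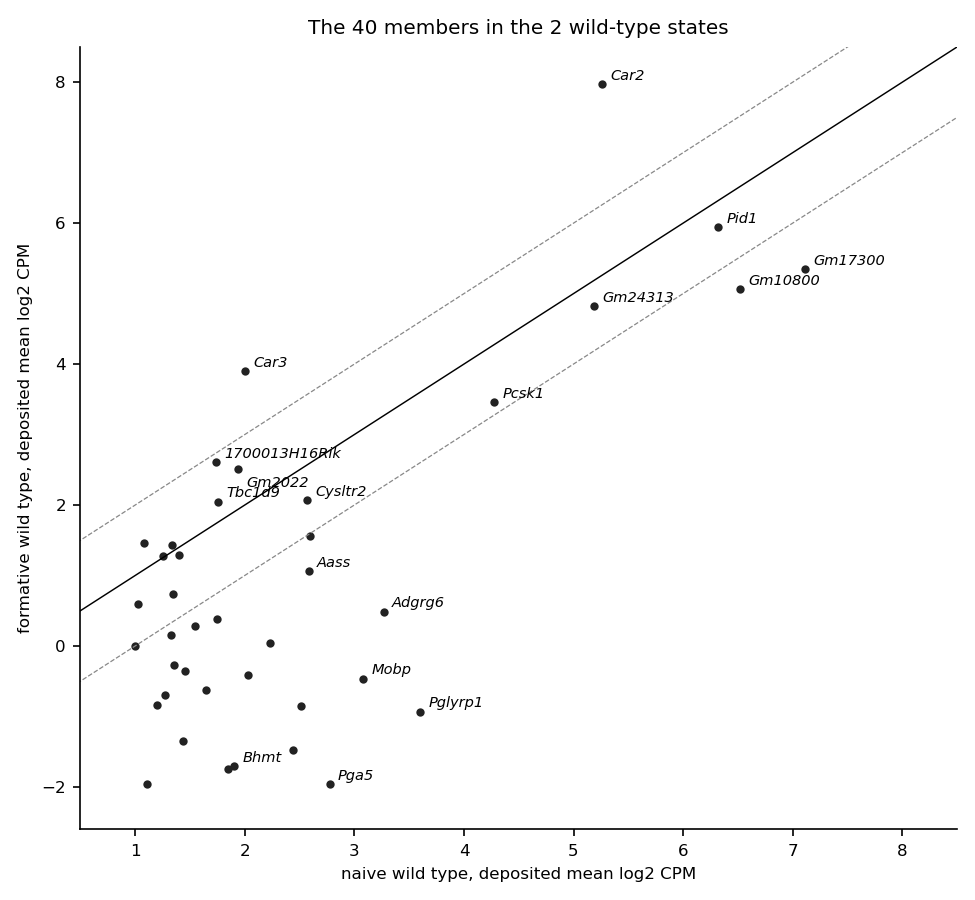
Formative against naive wild-type log2 CPM of the 40 genes as deposited means, with lines at equal level and at 2-fold. 25 genes lie below the lower line, and Car2 and Car3 lie above the upper one.

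Formative cells answer whether these genes were also low in the mutants after the exit from the naive state. The comparisons with formative wild type share the same 3 wild-type libraries and are given side by side. Levels were tested with limma over all genes with recovered libraries, and a gene was called at a Benjamini-Hochberg adjusted p under 0.05. A test was possible for 35 of the 40 genes in each of these comparisons. The 35 include genes, such as Pga5 and Bhmt, so near 0 CPM in formative wild type that a decrease was not detectable. In the floxed line 7 of 35 fell (20%, against 5.07% of all tested genes) and 2 rose (5.71% against 3.89%). In the knockout line 6 of 35 fell (17.1% against 8.12%) and 1 rose (2.86% against 11.6%). In the catalytic-dead line 3 of 35 fell (8.57% against 3.21%) and 1 rose (2.86% against 4.71%). The median difference of the tested genes was −0.36, −0.25 and −0.39, against 0.01, 0.06 and 0.06 over all tested genes. At an unadjusted p under 0.05 the counts were 11 lower and 3 higher, 9 and 2, and 6 and 2. The share over all tested genes was not taken at this limit. These counts therefore cannot be set against the shares above. Without wild-type library a, 5 genes passed the threshold in the floxed line in place of 9, and 4 in the knockout line in place of 7, as they also did without any 1 knockout library.

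The libraries can also be compared by their ranks alone. All 3 mutant libraries lay below all 3 formative wild-type libraries for 12 of 36 genes in the floxed line (33.3%, against 13.2% of all genes), 11 in the knockout line (30.6% against 14.6%) and 9 in the catalytic-dead line (25% against 11.2%). They lay above for 4 (11.1% against 12%), 3 (8.33% against 19.8%) and 3 (8.33% against 15%). Passing the threshold in none of the 3 comparisons were 24 genes, among them Bhmt, Mobp, Pga5, Adgrg6 and Pglyrp1. Formative Bhmt reached 0.216 CPM at most in wild type and was 0 in all 3 knockout libraries, so a further decrease was not detectable at this depth. Summed over the formative wild-type libraries, Pga5 had 2 counts, Bhmt 4, Gm20548 6 and Ms4a10 8. For these genes the comparisons cannot decide whether levels fell, because formative wild type left almost no room for a decrease.

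**Figure D4:**
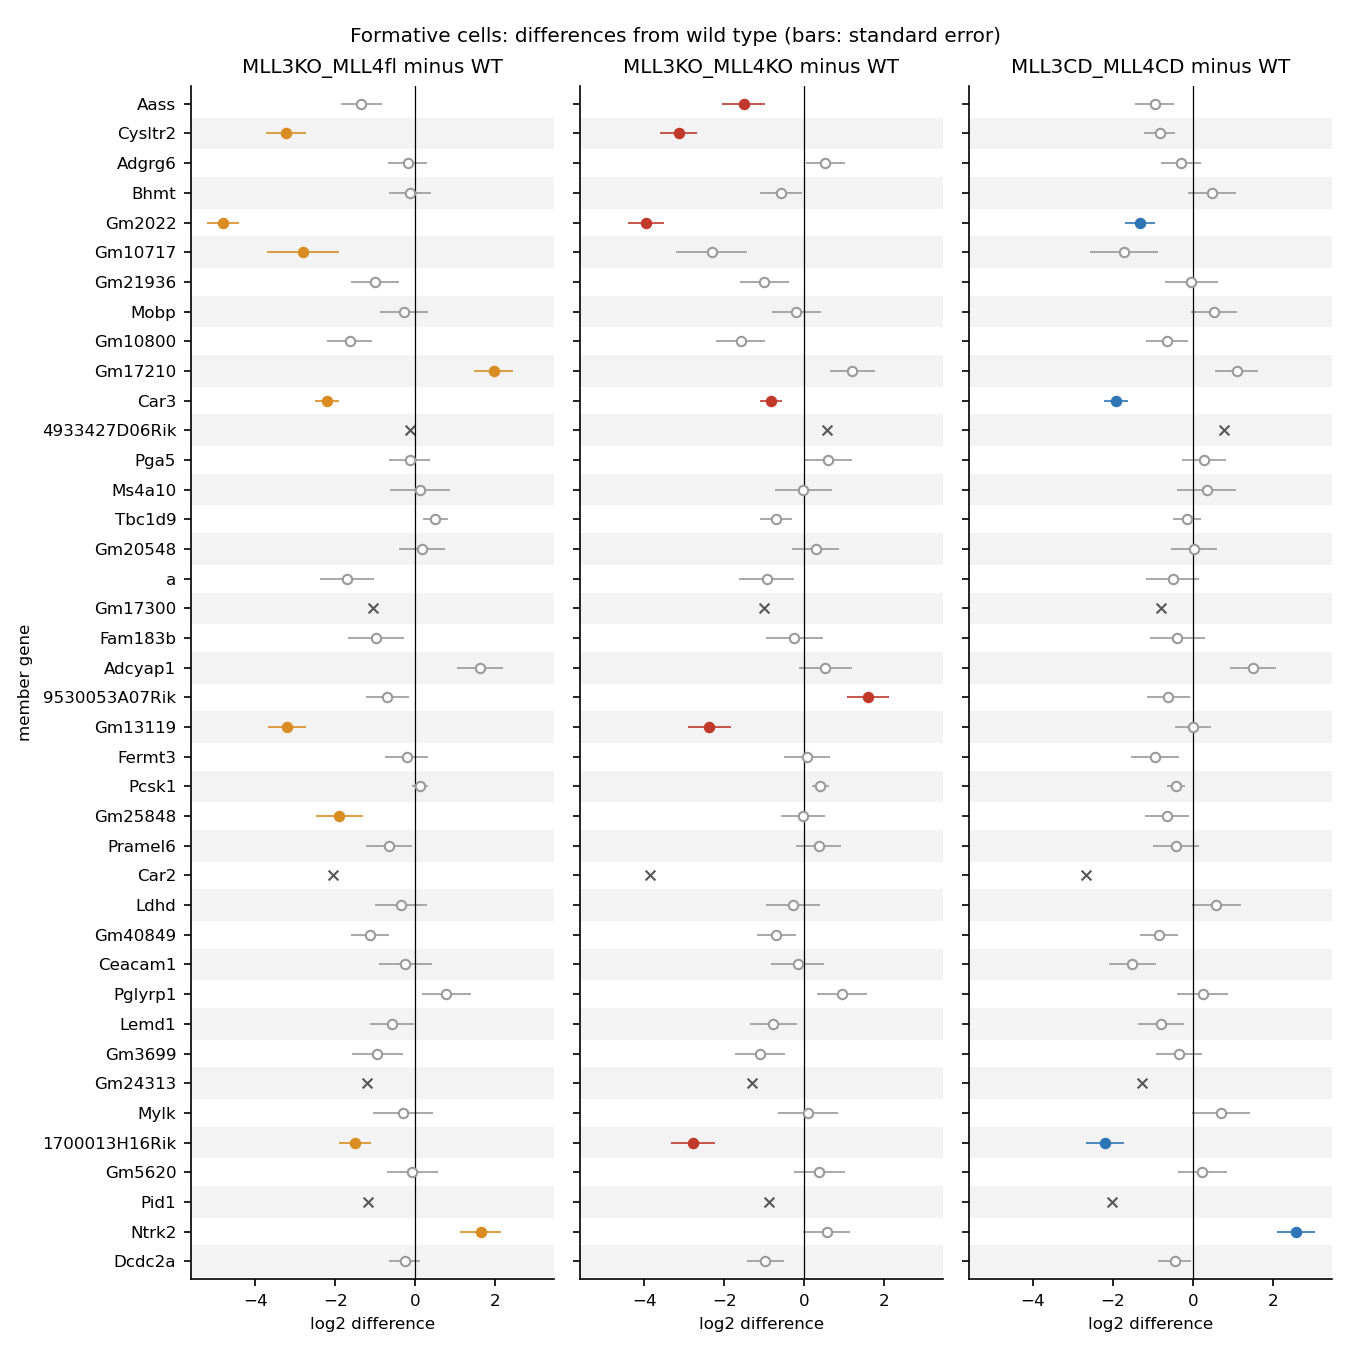
Formative differences from wild type of the 40 genes in log2 CPM, 1 row per gene and 1 colour per mutant line. Filled points passed the threshold, open points did not, bars are standard errors, and crosses are deposited differences of genes that were not tested, where the knockout values include the shared library. Gm2022, Cysltr2 and Gm13119 have the filled points furthest to the left, and Ntrk2 in the catalytic-dead line the one furthest to the right.

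Car3, 1700013H16Rik and Gm2022 fell in all 3 formative lines. Car3 stood at 18.1, 13.8 and 12.6 CPM in formative wild type, 3.97, 1.52 and 4.29 CPM in the floxed, 8.82, 9.56 and 6.45 CPM in the knockout and 4.29, 3.31 and 3.61 CPM in the catalytic-dead libraries. No mutant library reached the lowest wild-type library, and the knockout libraries lay between wild type and the other lines. The difference from wild type was −2.22 ± 0.302 in the floxed line (log2 ± SE, limma adjusted p = 3.35e-06), −1.92 ± 0.299 in the catalytic-dead line (adjusted p = 5.25e-05) and −0.83 ± 0.272 in the knockout line (adjusted p = 0.0275). By summed counts the level was 4.73-fold lower in the floxed line (95% interval 3.86 to 5.85, counting error only), 4.04-fold lower in the catalytic-dead line and 1.81-fold lower in the knockout line. The call in the knockout line was lost without weights (adjusted p = 0.174) and without formative wild-type library a (0.14) or knockout library a or c (0.0725 and 0.137). Its neighbour Car2 could not be tested in formative cells, and its deposited means were 7.97 log2 CPM in formative wild type and 5.91, 4.11 and 5.31 in the floxed, the knockout and the catalytic-dead line. Car2 was thus lowest in the formative knockout mean, where Car3 was the least lowered.

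1700013H16Rik, an X-linked protein-coding gene whose promoter is shown above, stood at 5.91, 4.42 and 7.84 CPM in formative wild type. The levels were 3.13, 1.10 and 2.05 CPM in the floxed, 0.301, 1.14 and 0.832 CPM in the knockout and 1.36, 0.568 and 1.73 CPM in the catalytic-dead libraries. Every mutant library lay below every wild-type library, and the ranges of the 3 mutant lines overlapped. The differences were −1.51 ± 0.407 (limma adjusted p = 0.0143), −2.78 ± 0.547 (adjusted p = 0.000315) and −2.20 ± 0.473 (adjusted p = 0.00235) in the floxed, the knockout and the catalytic-dead line. In the floxed line the call was lost without weights (0.104), without floxed library b (0.115) and without wild-type library c (0.064).

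Gm2022 stood at 5.91, 6.28 and 4.52 CPM in formative wild type and at 0 CPM in all 3 floxed libraries. The knockout libraries gave 0.501, 0.143 and 0 CPM and the catalytic-dead libraries 1.65, 2.65 and 2.02 CPM. In summed counts the floxed line had 0 against 180 in wild type, which makes the level at least 67.6-fold lower with a floor of 3 counts over the group. The knockout line was 20.7-fold lower (9.32 to 57.1) and the catalytic-dead line 2.76-fold lower (2.07 to 3.72). The fitted differences of −3.96 ± 0.454 in the knockout line (limma adjusted p = 5.65e-08) and −1.33 ± 0.376 in the catalytic-dead line (adjusted p = 0.0225) ran in the same order, and the call in the floxed line had an adjusted p of 4e-10. The call in the catalytic-dead line was lost without weights (0.147), without catalytic-dead library a or c (0.115 and 0.0645) and without wild-type library a or b (0.0764 and 0.0663). As in naive cells, this gene was near 0 in the floxed and knockout lines and intermediate in the catalytic-dead line.

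Cysltr2 and Gm13119 fell in the floxed and knockout lines. Cysltr2, with its promoter shown above, stood at 2.88, 4.51 and 4.92 CPM in formative wild type, 0.0764, 0.847 and 0.0933 CPM in the floxed, 0.301, 0.143 and 0.416 CPM in the knockout and 3.01, 2.08 and 1.59 CPM in the catalytic-dead libraries. The floxed and knockout libraries lay far below wild type, and 1 catalytic-dead library overlapped it. The differences were −3.24 ± 0.505 (limma adjusted p = 2.96e-05), −3.14 ± 0.468 (adjusted p = 5.23e-06) and −0.83 ± 0.381 (adjusted p = 0.189) in the floxed, the knockout and the catalytic-dead line. Gm13119 stood at 2.23, 2.45 and 1.99 CPM in formative wild type, 0.229, 0 and 0 CPM in the floxed, 0.401, 0 and 0.624 CPM in the knockout and 2.79, 1.51 and 2.60 CPM in the catalytic-dead libraries. Here the catalytic-dead libraries spanned the wild-type range. The differences were −3.21 ± 0.475 (adjusted p = 1.32e-05), −2.37 ± 0.545 (adjusted p = 0.00169) and 0.01 ± 0.447 (adjusted p = 0.996), and the knockout call was lost without knockout library b (0.0557). Whether the catalytic-dead line differed from the other mutant lines was not tested for these genes.

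**Figure D5:**
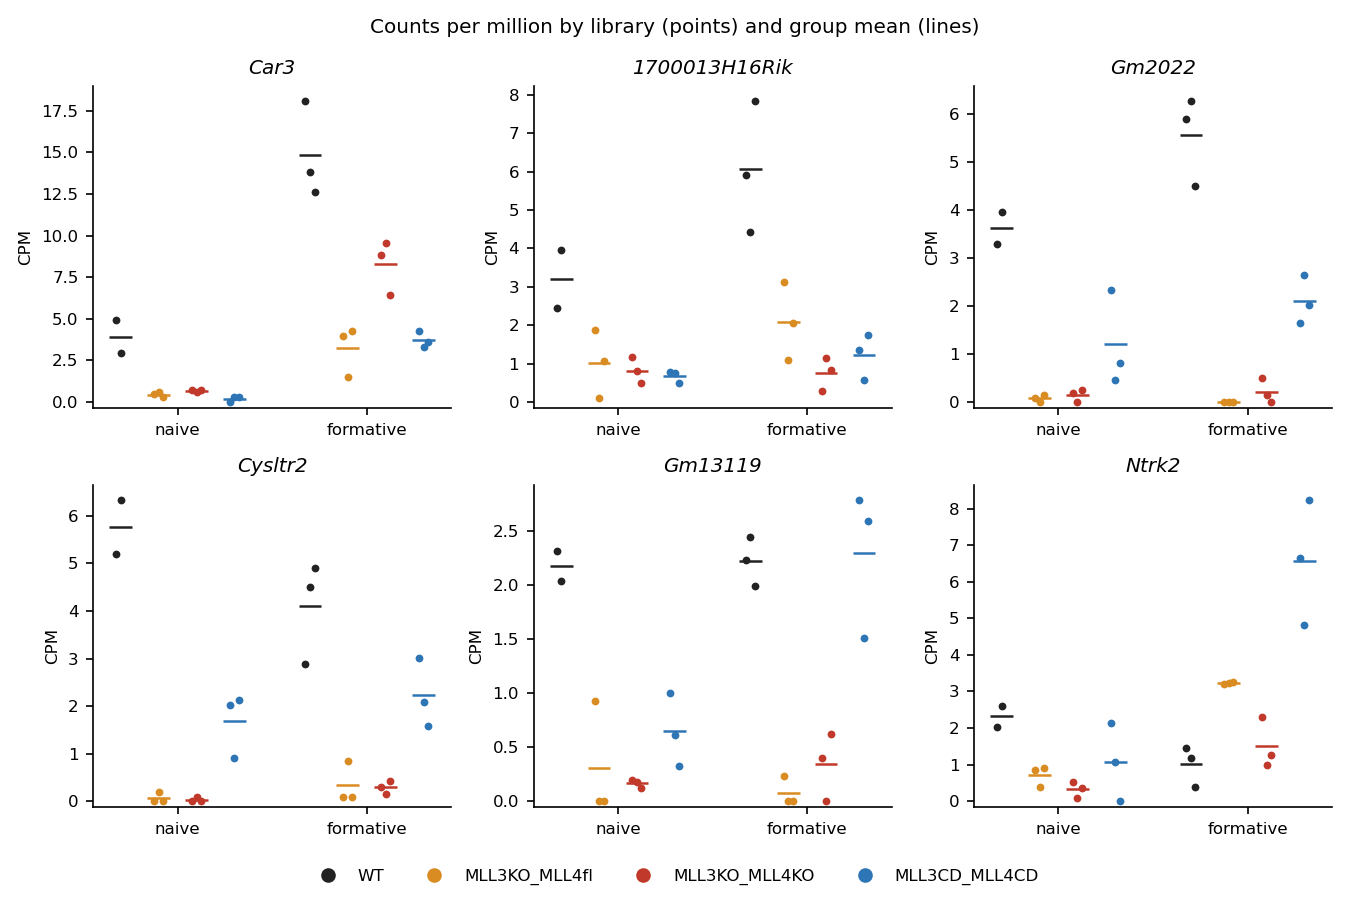
CPM of Car3, 1700013H16Rik, Gm2022, Cysltr2, Gm13119 and Ntrk2 in every recovered library, with naive and formative groups of the 4 lines side by side and a bar at each group mean. Car3 is low in all naive mutants and higher in formative ones, Gm2022 and Cysltr2 stay near 0 in the floxed and knockout lines in both states, and Ntrk2 is low in naive mutants and highest in formative catalytic-dead cells.

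Aass, Gm10717 and Gm25848 fell in 1 line each. Aass stood at 2.52, 2.16 and 1.2 CPM in formative wild type and at 0.382, 0.677 and 0.840 CPM in the floxed, 0.602, 0.571 and 0.416 CPM in the knockout and 1, 0.757 and 0.867 CPM in the catalytic-dead libraries. All 9 mutant libraries lay below wild type. The difference was −1.51 ± 0.532 in the knockout line (limma adjusted p = 0.0411), −1.35 ± 0.507 in the floxed line (adjusted p = 0.0913) and −0.95 ± 0.488 in the catalytic-dead line (adjusted p = 0.252). Gm10717 stood at 2.16, 3.24 and 2.92 CPM in formative wild type and at 0.305, 0.508 and 0 CPM in the floxed libraries, a difference of −2.81 ± 0.906 (adjusted p = 0.0455). Gm25848 stood at 1.08, 1.28 and 1.59 CPM in wild type and at 0.611, 0 and 0.187 CPM in the floxed libraries, a difference of −1.90 ± 0.594 (adjusted p = 0.0372). Its knockout libraries, at 1.40, 1.71 and 0.832 CPM, overlapped wild type. The Aass call in the knockout line was lost without any 1 of the 3 knockout libraries (0.0774, 0.0945 and 0.128) or wild-type library a or b (0.147 and 0.0893), and the Gm10717 call without any wild-type library (0.071, 0.0967 and 0.0792) or floxed library a or c (0.0879 and 0.203). The Gm25848 call was lost without any wild-type library (0.0678, 0.0711 and 0.0965) and without floxed library b or c (0.225 and 0.0964).

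Ntrk2, Gm17210 and 9530053A07Rik rose in formative mutant cells. Ntrk2 stood at 1.44, 1.18 and 0.399 CPM in formative wild type, 3.21, 3.22 and 3.27 CPM in the floxed, 2.31, 0.999 and 1.25 CPM in the knockout and 6.66, 4.82 and 8.24 CPM in the catalytic-dead libraries. All floxed and catalytic-dead libraries lay above wild type, and the knockout libraries overlapped it. The difference was 1.63 ± 0.51 in the floxed line (limma adjusted p = 0.0382) and 2.58 ± 0.485 in the catalytic-dead line (adjusted p = 0.000575), and by summed counts Ntrk2 was 2.91-fold and 5.77-fold higher. Gm17210 stood at 0.0720, 0.294 and 0.133 CPM in formative wild type and at 2.14, 1.02 and 0.746 CPM in the floxed libraries, a difference of 1.96 ± 0.488 (adjusted p = 0.00772). 9530053A07Rik stood at 0.288, 0.196 and 0.664 CPM in wild type and at 1.70, 1.28 and 1.46 CPM in the knockout libraries, a difference of 1.59 ± 0.536 (adjusted p = 0.0321). That difference was not called with the knockout mean as deposited (0.287), nor without wild-type library a or b (0.1 and 0.128) or knockout library a, b or c (0.101, 0.0529 and 0.0581). The Ntrk2 call in the floxed line was lost without any 1 library of either group, at adjusted p values of 0.063 to 0.203, and the Gm17210 call without wild-type library a (0.0656) or floxed library a (0.0863).

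The formative knockout line was also compared with the formative floxed line. Both lack MLL3 by name, and they differ in MLL4. With 1 line per genotype, loss of MLL4 and other differences between the lines cannot be told apart. Of 37 tested genes 1 fell (2.7%, against 6.43% of all tested genes) and 3 rose (8.11% against 10.6%), and the median difference was 0.10 against 0.05 over all tested genes. Car3 was higher in the knockout line by 1.39 ± 0.335 (limma adjusted p = 0.00319), 9530053A07Rik by 2.30 ± 0.494 (adjusted p = 0.000987) and Gm25848 by 1.87 ± 0.614 (adjusted p = 0.0313). Tbc1d9 stood at 5.12, 5.34 and 6.53 CPM in the floxed and 2.31, 1.86 and 2.91 CPM in the knockout libraries, which did not overlap. It fell by 1.21 on the log2 scale, with an SE of 0.391 (adjusted p = 0.029). The Gm25848 call was lost without floxed library b or c (0.179 and 0.0788) or knockout library a or b (0.0925 and 0.111), and the Tbc1d9 call without floxed library c (0.0798) or knockout library a or b (0.106 and 0.122). The count was 2 in place of 4 without each of floxed library c and knockout libraries a and b. In naive cells the knockout minus floxed difference was 0.48 for Car3, 0.39 for 9530053A07Rik, −0.34 for Gm25848 and −0.83 for Tbc1d9, values that the choice of genes bounded from below.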

How the data were processed

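The deposited table held 16617 genes in 8 columns of mean log2 CPM (prior count of 2), 1 per group, made by the authors. Per the labels' protocols, 200 ng of Trizol RNA went into QuantSeq 3′ FWD libraries read single-end. The submitters' processing notes name cutadapt 2.5, STAR, featureCounts of Subread 1.6.4, DESeq2 1.34.0 and mm10. The conditional column was read as the floxed line. Annotation was GENCODE vM21 (16606 genes matched).

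Whole counts of single libraries were recovered from the means (23 sizes, each within 0.042 of a whole number), for 10139 genes (61.0%) in all groups. Where a mean allowed several sets of counts, as for most abundant genes, no test was made. The naive wild-type column averaged 2 libraries, with 6812462 counts then belonging to no column, while 4 libraries entered the formative knockout mean, of which 1 (6919314 counts) also entered the catalytic-dead column and was removed for the tests. Counts were searched within 1.0 log2 of the group mean, and within 4.0 for genes with no solution, a step added after the yield had been seen.

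limma 3.58.1 in R 4.3.3 was fitted to the 8 groups, with weights from a lowess trend (span 0.3). The filter was a minimum CPM in 3 libraries that equals 10 counts at a median-sized library (16539 genes passed). Of the 40 genes, 35 passed it and had a value in every library of each comparison with wild type. In the remaining comparison this held for 37. 4933427D06Rik had values in every formative group but did not pass the filter. Fold changes on this scale understate those of low genes. Intervals on summed counts are exact 95% intervals and cover counting error only. The procedure was tested on simulated data, with a spread of 0.2 log2 before counting error for all but the lowest genes. In knockout against floxed, 13.8%, 57.6% and 84.7% of the simulated 1.5-fold, 2-fold and 4-fold changes were called. Of the calls 8% were unchanged genes. Many small changes are thus missed, and real libraries may differ from this setting. Members and lists were chosen with earlier results of these data known. Named were the 20 genes of lowest mean naive difference, up to 8 called per formative comparison and direction, the 10 of highest naive wild-type level, those at the threshold's edge and neighbouring pairs, 30 in all, and the other 10 are counted unless said otherwise. Promoters are from RefSeq, build GRCm38.p6.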

Additional observations from a re-analysis of the deposited data

Results flagged for a closer look

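For 6 genes every library of a mutant line lay below both naive wild-type libraries and, in formative cells, every library of that line lay above all 3 wild-type libraries. The naive side was set by the choice of genes, and the difference between the states was not tested. The formative side alone was no more frequent than in the table as a whole: 4, 3 and 3 of 36 genes (11.1%, 8.33% and 8.33%) lay above wild type in the floxed, the knockout and the catalytic-dead line, against 12%, 19.8% and 15% of all genes. In the formative floxed line the difference from wild type was 1.96 for Gm17210 (naive −2.61), 0.50 for Tbc1d9 (naive −1.87), 1.61 for Adcyap1 (naive −1.72) and 1.63 for Ntrk2 (naive −1.51), in log2 CPM. In the formative knockout line it was 1.2 for Gm17210 (naive −2.23), 1.59 for 9530053A07Rik (naive −1.93) and 0.40 for Pcsk1 (naive −2.75). In the formative catalytic-dead line it was 1.09 for Gm17210 (naive −3.40) and 1.5 for Adcyap1 (naive −3.15). By limma, Gm17210 and Ntrk2 in the floxed line and 9530053A07Rik in the knockout line passed the threshold in formative cells, and the other 6 differences did not. Gm17210 showed this order in all 3 lines, from 5 counts summed over formative wild type.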

How the results depend on the processing

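The number of genes meeting the thresholds was 40. It was 11 with naive differences of −2 or less, 18 with a naive wild-type level of at least 2, and 36 to 61 when single naive libraries were left out. Without naive wild-type library b 61 genes met them, 27 of which were among the 40, and without library a 56 did, sharing 34. At the looser limit tried for the naive differences there were 60 genes and with size factors 46, which held all 40. In formative cells 9, 7, 4 and 4 genes passed the threshold in floxed, knockout and catalytic-dead against wild type and in knockout against floxed. Left-out formative libraries gave 5 to 7, 4 to 7, 3 to 4 and 2 to 4. The floxed count was 5 without wild-type library a, the knockout count 4 without wild-type library a or any 1 knockout library, and the knockout against floxed count 2 without knockout library a or b or floxed library c. A filter of 20 counts gave 2 in knockout against floxed. With that looser limit, 12 and 7 genes passed in the knockout and catalytic-dead lines. At −2 the counts were 3, 2, 1 and 1, and with a naive wild-type level of at least 2 they were 4, 4, 1 and 2, from fewer genes. Of 24 calls of single genes 12 held in every alternative: Car3, Gm2022, Cysltr2 and Gm13119 in the floxed line, 1700013H16Rik, Gm2022 and Cysltr2 in the knockout line, 1700013H16Rik, Car3 and Ntrk2 in the catalytic-dead line, and Car3 and 9530053A07Rik between knockout and floxed. The other 12 were lost in 1 or more, 6 were gained in 1 or more, and none reversed. The cause was not tested. No paired analysis was possible because the deposited columns are group means that carry no replicate numbers. Size factors moved the median of a column by less than 0.1 log2. Depth limits the genes near 0 CPM, for which a further decrease is not detectable.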

Other observations

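Some relatives of the 40 genes that were not among them, listed after the group was known, were also low in naive mutant cells. Dmgdh, the dimethylglycine dehydrogenase that acts next to Bhmt in the breakdown of betaine, differed from naive wild type by −2.73, −4.38 and −2.27 log2 CPM in the floxed, the knockout and the catalytic-dead line, and Bhmt2 by −1.60, −2.70 and −1.08. Of 5 eIF1A-like genes outside the group, 1 (Gm5788) was at least 2-fold lower in every line, and the medians of the 5 were −3.34, −2.98 and −0.71. Outside the group this also held for 2 of 2 satellite-sharing, 2 of 5 Pramel and Pramef, 1 of 2 Ntrk and 1 of 2 Ceacam genes. It held for 0 of 3 lysine and lactate enzymes, 0 of 2 Ms4a genes and 0 of 10 carbonic anhydrases. Some of these genes were too low in naive wild type to fall this far. Aadat had 0 and 1, Ms4a4d 0 and 2 and Car10 0 and 0 counts in libraries a and b. Over all genes with a naive wild-type mean of at least 1, 1.58% were at least 2-fold lower in every line. The family counts were not limited to that level.

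Genes within 200 kb of the 40, with a naive wild-type level of at least 1, numbered 159. Of these 8 (5.03%) were at least 2-fold lower in all 3 naive mutant lines, against 1.58% of 11793 genes at that level. They were Bhmt2 and Dmgdh near Bhmt, counted above too, Pramel7 near Pramel6, and Pramef12 near Gm13119. The others were Gm10801 near Gm10800, Gm21939 near Gm21936, Gm2056 near Gm2022, and AF357399 near 9530053A07Rik. Bhmt2, Dmgdh, Pramel7, Pramef12 and Gm10801 belong to the same listed families as the genes of the 40 beside them. Gm10801 stood at 148.1 and 4.75 CPM in naive wild-type libraries a and b. The medians of the 159 genes lay at −0.09, −0.02 and −0.02. These are naive values with no test.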
